A study of Mus musculus with 6 samples.

Results

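The miR-34 family was followed in mouse 3T3-L1 adipocytes that differentiated with or without interleukin-6 (IL-6), an inflammatory cytokine. Its members were taken by name, as every mouse miRNA on the array whose number is exactly 34, with any letter and either arm. This gave 6 of the 1247 mouse miRNAs on the array, namely mmu-miR-34a-5p, mmu-miR-34a-3p, mmu-miR-34b-5p, mmu-miR-34b-3p, mmu-miR-34c-5p and mmu-miR-34c-3p (written below without the mouse prefix), read by 12 of its 3105 probes. The rule uses names alone. 3T3-L1 is an established line of mouse embryo fibroblasts that forms fat cells under a hormone cocktail. All 6 samples went through the same cocktail (isobutyl-methylxanthine, dexamethasone, insulin and rosiglitazone), then insulin alone, then plain serum medium, and were taken on day 8. The 4 control samples received nothing else. The 2 IL-6 samples had 1 ng/ml recombinant IL-6 from the start of induction, renewed daily. Whether the samples of a group were separate cultures is not stated in the labels. The p-values below therefore set each difference only against the spread among these samples, which may be technical. The small number of arrays also limits the precision of these p-values.

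miR-34 is the best-known group of miRNAs under the tumour suppressor p53, which binds upstream of both of its genes and raises their transcription. The 5p arms are the main guide strands, and they repress cell cycle genes and Sirt1, a deacetylase. In fat and liver, miR-34a is known for restraining the receptors of FGF hormones, Fgfr1 and its partner Klb, and for rising in obesity, where it blunts insulin signalling. miR-34b and miR-34c are cut from 1 transcript and are best known from testis and ciliated epithelium, where miR-449 miRNAs with the same seed accompany them. In colorectal tumour cells, STAT3 downstream of IL-6 has been reported to repress the miR-34a gene, and miR-34a to target the IL-6 receptor. IL-6 in adipocytes is thus a setting in which the family's level is of interest.

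The mature sequences are shown because the seed, bases 2 to 8 in capitals, largely decides which transcripts a miRNA pairs with. They come from RefSeq on GRCm38.p6, where 5 of the 6 members and 2 of the 3 miR-449 entries matched. miR-34c-5p and miR-449b had no match, and for that reason alone they are missing from the sets below. The first set holds the 5p arms with the seed GGCAGUG.
miR-34a-5p: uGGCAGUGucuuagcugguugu
miR-34b-5p: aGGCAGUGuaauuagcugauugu
miR-449a-5p: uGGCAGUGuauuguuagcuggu
miR-449c-5p: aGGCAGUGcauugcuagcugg
The second set holds the 3p arms, of which miR-34b-3p and miR-34c-3p share the seed AUCACUA and miR-34a-3p has another.
miR-34a-3p: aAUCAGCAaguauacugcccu
miR-34b-3p: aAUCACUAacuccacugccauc
miR-34c-3p: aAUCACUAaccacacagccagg

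miR-34a-5p lies at chr4:150068473-150068494 on the plus strand, in the hairpin gene Mir34a (chr4:150068454-150068555, GRCm38.p6). That hairpin overlapped no other gene of the RefSeq table, and the nearest coding gene, Gpr157, lay 18948 bases away. miR-34b-5p lies at chr9:51103610-51103632 on the minus strand, in the hairpin Mir34b (chr9:51103562-51103645). The hairpin Mir34c (chr9:51103034-51103110) follows on the same strand with 451 bases between them. Both hairpins lie within the bounds of the coding genes Btg4 and Hoatz. Whether they fall in an exon or an intron of those genes was not analysed here.

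Each probe pairs with the miRNA from its 3′ end inwards. The longest probes reach base 3 of miR-34a-5p and base 2 of miR-34b-5p. They thus cover most of the seed of miR-34a-5p and all of that of miR-34b-5p. The array can tell the family's 5p arms apart only where their probes differ. The longest probe of each 5p arm is shown for that reason, as the array file gives it, and capitals in the miR-34c-5p probe mark the bases that differ from the miR-34b-5p probe.
miR-34a-5p probe: acaaccagctaagacactgc
miR-34b-5p probe: acaatcagctaattacactgcc
miR-34c-5p probe: GcaatcagctaaCtacactg
Counted from the probe's 5′ end, the miR-34b-5p and miR-34c-5p probes differed at 2 of the 20 positions compared, A1G and T13C. By the same position-by-position count over 20 bases, the miR-34a-5p probe differed from the miR-34b-5p probe at 9 and from the miR-34c-5p probe at 10. In both cases every position from 13 to 20 counted as different. This count allows for no inserted base, so it overstates how unlike the probes are. Counted as single-base edits over the whole probes, with insertions and deletions allowed, miR-34a-5p was 4 edits from miR-34b-5p and 5 from miR-34c-5p, and miR-34b-5p was 4 from miR-34c-5p. How much of a signal came from the other members binding a probe was not tested. The probes of the 3p arms were shorter, with 13 and 14 bases for miR-34c-3p, 15 and 16 for miR-34b-3p, and 16 and 17 for miR-34a-3p. Each member had 2 probes and 40 spots on every array.

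Each array detected between 268 and 313 miRNAs, fewest on control 3 and most on IL-6 1. Signals are fluorescence intensities. They were scaled between arrays by the 75th percentile over the 502 probes that all 6 arrays detected, a value between 248 and 440 units. Detection of a probe required that a share of 0.5 or more of its usable spots was well above background. Of the 17 markers of muscle, blood, neural, liver, endothelial, epithelial and ciliated cells, 16 were on the array and 0 were detected on any sample. All 5 markers of mesenchymal cells and fat were detected on every array. All 6 arrays shared 1 slide. Its first row held the 4 controls and its second row both IL-6 arrays, so slide row and treatment cannot be told apart, while columns 3 and 4 held an array of each group.

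The 5p arms of all 3 hairpins were detected on every array, and no 3p arm was detected on any. For miR-34a-5p, 231 of 231 usable spots over the 6 arrays were well above background. The same held for 230 of 230 spots of miR-34b-5p and 227 of 227 spots of miR-34c-5p. For miR-34a-3p the count was 0 of 237 spots, and for miR-34c-3p it was 0 of 230. miR-34b-3p had 7 of 225. The number of members detected was therefore 3 on each of the 4 control arrays and 3 on each of the 2 IL-6 arrays. By the scanner software's own call it was 3, 4, 3 and 3 on the control arrays and 4 on both IL-6 arrays, and miR-34b-3p made the difference.

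**Figure D1:**
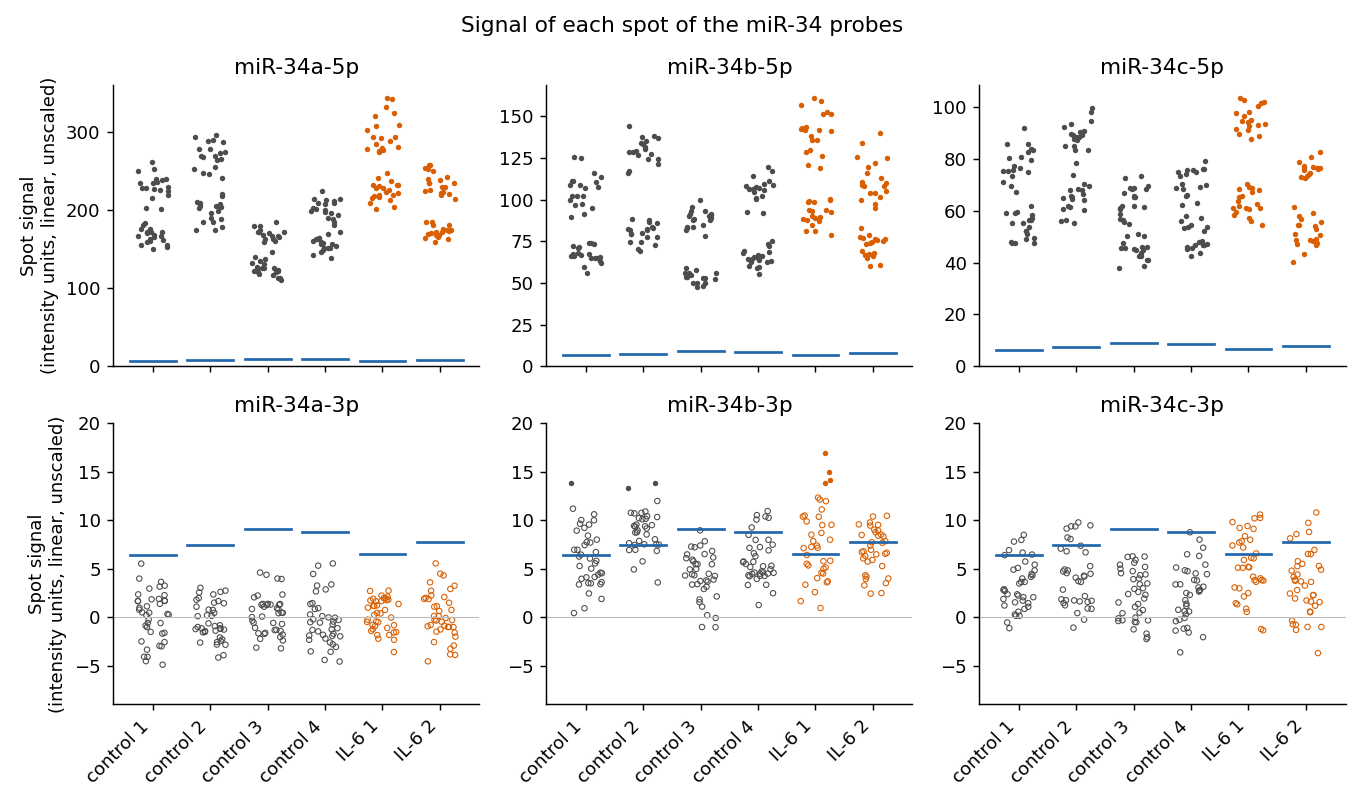
Signal of every usable spot of the miR-34 probes on each array, in unscaled intensity units on a linear axis (grey, 4 control arrays; orange, 2 IL-6 arrays). Filled points are spots well above background, open points are not, and blue lines mark the 99th percentile of that array's 1000 negative control spots. All spots of the 5p arms stand far above the blue lines, and 7 spots of miR-34b-3p are filled. Each 5p arm forms 2 bands on an array, which are its 2 probes.

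miR-34a-3p, the passenger strand of miR-34a, gave no signal above the blank spots. Its unscaled mean was 0.0838, -0.418, 0.263 and -0.376 units on controls 1 to 4, and 0.242 and 0.191 on IL-6 1 and 2. On every array this was below the median of the 1000 negative control spots, which ranged from 0.595 to 1.5 units. No level of this arm was measurable in either group.

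miR-34c-3p, the passenger strand of miR-34c, was not well above background on any array either. Its unscaled mean was 3.32, 4.49, 2.34 and 2.48 units on the control arrays and 5.09 and 3.38 on the IL-6 arrays. All 6 values exceeded the median of the negative control spots and none reached their 99th percentile, which ran from 6.44 to 9.11 units. After scaling, the controls averaged 3.35 ± 0.605 units (SD, n = 4) and the IL-6 arrays 3.70 ± 0.607 (SD, n = 2), and the groups overlapped (two-sided exact permutation p = 0.6).

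miR-34b-3p sat at the edge of detection. Its well-above-background spots numbered 1, 2, 0 and 0 on controls 1 to 4, and 4 and 0 on IL-6 1 and 2. All 7 belonged to its longer probe, of 16 bases, and none to the probe of 15 bases. The share of spots averaged 2.07% in controls and 5.26% with IL-6, a difference of 3.19 percentage points (two-sided exact permutation p = 0.533, where the 15 ways to split 6 arrays allow nothing below 0.0667). The scaled signal was 6.42, 7.99, 6.17 and 6.24 units on the control arrays and 6.23 and 6.80 on the IL-6 arrays. Control 2 was the highest and both IL-6 arrays lay within the control range. Means were 6.70 ± 0.863 (SD, n = 4) and 6.51 ± 0.406 (SD, n = 2), with an exact permutation p of 0.867. The scanner software called it detected on control 2, IL-6 1 and IL-6 2. No fold is given for the 3p arms, since no array of either group met the detection rule for them. The unscaled mean of miR-34b-3p was 8.85 units on control 2 and 7.67 on IL-6 1. These exceeded the 99th percentile of the negative control spots there, 7.49 and 6.46 units, while the other arrays stayed below it.

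miR-34a-5p, the family's guide strand best known in adipose tissue, showed no difference between the groups that passed the test. Its scaled signal was 205, 212, 211 and 186 units on controls 1 to 4, and 211 and 197 units on IL-6 1 and 2. The lowest value belonged to control 4, and both IL-6 arrays lay between it and the highest control. On the log2 scale the controls averaged 7.67 ± 0.09 (SD, n = 4) and the IL-6 arrays 7.67 ± 0.07 (SD, n = 2). The difference, IL-6 minus control, was 0.0068 ± 0.08 (SE), with a limma adjusted p of 0.978. Its 95% interval ran from -0.18 to 0.20, or from 0.881- to 1.15-fold. That interval is for the difference between these groups of arrays under this scaling, where slide row goes with treatment. A p that misses the threshold does not show that the level of miR-34a-5p was equal. In RNA from whole cultures, fewer cells of a type and less of a miRNA per cell cannot be told apart.

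miR-34b-5p, cut from the chromosome 9 transcript, did not pass either. Its scaled signal was 89.1, 94.6, 102 and 89.2 units on the control arrays and 94.1 and 89.1 on the IL-6 arrays. Control 3 was highest, and IL-6 2 was level with the lowest controls. The log2 means were 6.55 ± 0.09 (SD, n = 4) and 6.52 ± 0.06 (SD, n = 2). The difference was -0.03 ± 0.08 (SE, limma adjusted p = 0.867), with a 95% interval from 0.851- to 1.13-fold.

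miR-34c-5p, the other miRNA of that transcript, had the largest difference of the 3 detected arms under this scaling, and it did not pass the test. Its scaled signal was 68.2, 69.9, 78.9 and 63.7 units on the control arrays and 64.4 and 61.9 on the IL-6 arrays. IL-6 2 was the lowest of all 6 arrays, and IL-6 1 lay just above control 4, so the groups overlapped by 1 array. The log2 means were 6.13 ± 0.13 (SD, n = 4) and 5.98 ± 0.04 (SD, n = 2). The difference was -0.15 ± 0.10 (SE, limma adjusted p = 0.419). Its 95% interval ran from 0.761- to 1.07-fold, so a level up to 1.31-fold lower with IL-6 lay within it. Within slide column 3 the difference was -0.29 and within column 4 it was -0.04, with 1 array per group in each.

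**Figure D2:**
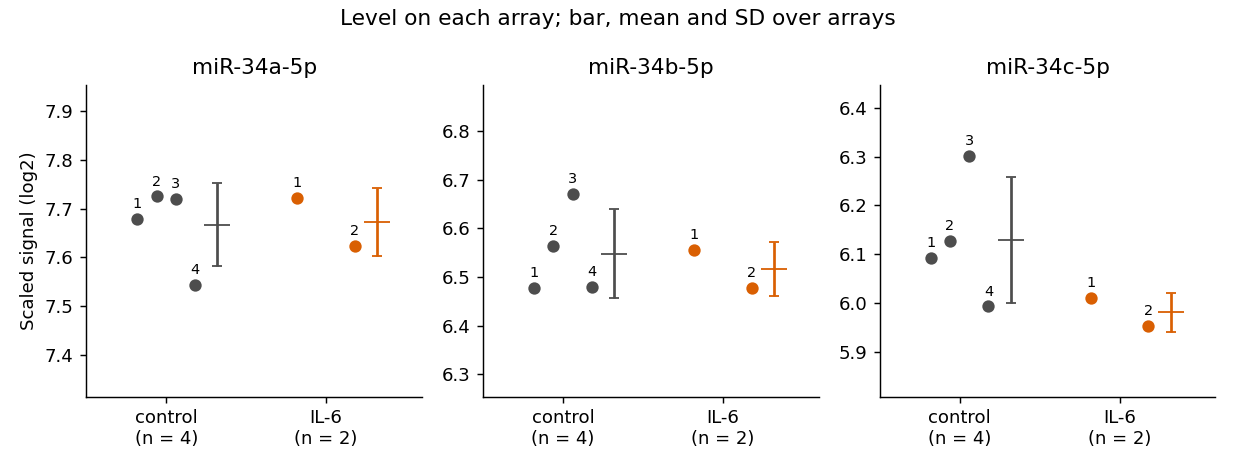
Scaled signal on a log2 axis for the 3 detected members, 1 point per array with its replicate number, and beside each group its mean with the SD. The 3 panels span the same range of log2 units. Both IL-6 arrays lie within the control range for miR-34a-5p, and IL-6 array 2 is the lowest point for miR-34c-5p.

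None of the 3 tested members passed at an adjusted p of 0.05, and 0 of 3 had both IL-6 arrays outside the control range. Over all 299 tested miRNAs, 0.334% were called, which is the single miRNA miR-5117-5p, named here because it was the only one. For 34.8% of the tested miRNAs both IL-6 arrays were outside the range of the controls. At an unadjusted p under 0.05 limma gave 68 of the 299 (22.7%) and 0 of the 3 members, whose unadjusted p ran from 0.190 to 0.932. The median difference of the 3 members was -0.03, with 2 below 0 and 1 above (all 3 above 0 without scaling), beside -0.016 over all tested miRNAs, with 163 below 0 and 136 above.

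The size of these differences can be placed among all tested miRNAs. Ordered from the smallest absolute difference, miR-34a-5p ranked 13 of 299, miR-34b-5p ranked 45 and miR-34c-5p ranked 162. The median absolute difference was 0.14, so miR-34c-5p was a typical miRNA in this respect. Ordered by the SD over the 4 controls, miR-34a-5p ranked 85, miR-34b-5p ranked 95 and miR-34c-5p ranked 152 from the lowest, beside a median SD of 0.13. The intervals above are therefore not unusually wide for these arrays.

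**Figure D3:**
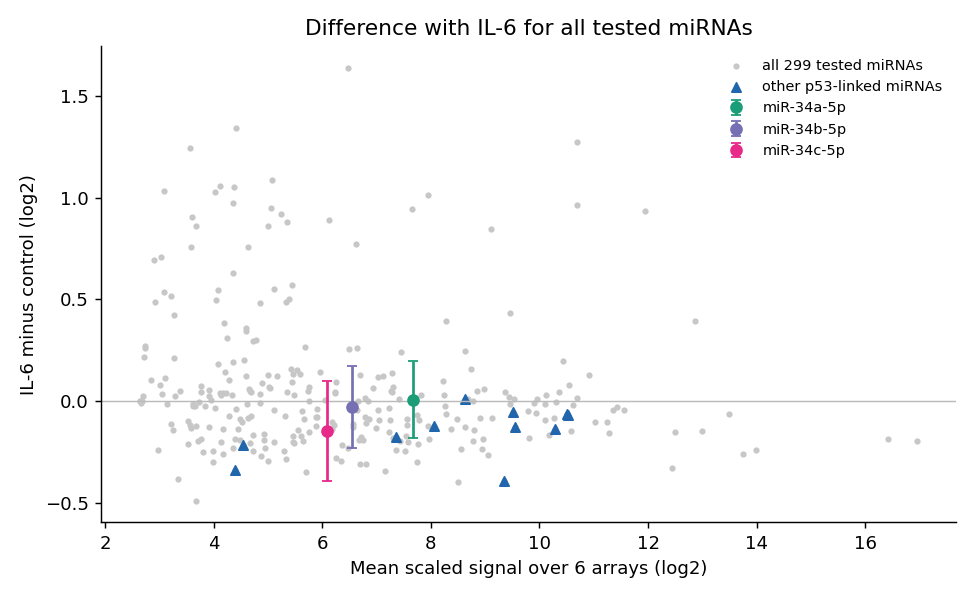
Difference between IL-6 and control arrays in log2 units (vertical) against the mean scaled signal over 6 arrays in log2 units (horizontal) for 299 tested miRNAs (grey), with 11 other p53-linked miRNAs as blue triangles. The miR-34 members carry limma's 95% intervals. All 3 intervals cross 0, and 10 of the 11 triangles lie below 0, under the scaling reported.

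The 2 probes of each member were compared, since they read the same miRNA with a length that differs by 1 base. For miR-34a-5p both probes gave the same difference to 2 decimals, 0.0068 and 0.0070 (log2). For miR-34b-5p they gave 0.0074 and -0.06, on either side of 0. For miR-34c-5p they gave -0.19 for the 19-base probe and -0.12 for the 20-base probe. On the 19-base probe both IL-6 arrays lay below all 4 controls (exact permutation p = 0.133), and on the 20-base probe 1 control lay between them (exact permutation p = 0.333). The spread over the spots of a probe, as a coefficient of variation, was between 3.69% and 11%. The raw signals behind them ranged from 45.3 to 298 units.

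Scaling matters for differences of this size, so the members were also set against each other within each array, where a factor per array cancels. Such a difference of log2 signals is no ratio of amounts, because probes differ in brightness, and only its shift between groups is read. For miR-34b-5p minus miR-34a-5p it was -1.20, -1.16, -1.05 and -1.06 on the control arrays and -1.17 and -1.15 on the IL-6 arrays. These overlapped, with a shift of -0.04 (exact permutation p = 0.6, and 0.6 after Benjamini-Hochberg adjustment over 3 pairs).

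For miR-34c-5p minus miR-34a-5p the values were -1.59, -1.60, -1.42 and -1.55 on the control arrays and -1.71 and -1.67 on the IL-6 arrays. Both IL-6 arrays lay below all 4 controls, with a shift of -0.15 (exact permutation p = 0.133, adjusted 0.2). For miR-34c-5p minus miR-34b-5p the values were -0.39, -0.44, -0.37 and -0.49 on the control arrays and -0.55 and -0.52 on the IL-6 arrays. Again both IL-6 arrays lay below all controls, with a shift of -0.12 (exact permutation p = 0.133, adjusted 0.2). miR-34c-5p was thus lower relative to each of the other detected members on both IL-6 arrays, by an amount that did not pass a test whose smallest possible p is 0.0667. In both contrasts control 3 was highest and IL-6 1 lowest, the arrays with the lowest and highest scaling percentile, 248 and 440 units. Whether these contrasts follow the brightness of an array was not tested.

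Separation of this kind was common. Relative to miR-34a-5p, 29.2% of the other 298 tested miRNAs had both IL-6 arrays outside the range of the controls. The share was 26.2% relative to miR-34b-5p and 29.5% relative to miR-34c-5p. With the probes taken 1 by 1, miR-34c-5p minus miR-34a-5p was separated in 4 of 4 probe pairs, with shifts between -0.20 and -0.12. miR-34c-5p minus miR-34b-5p was separated in 3 of 4, between -0.20 and -0.06, and miR-34b-5p minus miR-34a-5p in 0 of 4. The 3 contrasts share members and arrays, and they were chosen after the data were seen.

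**Figure D4:**
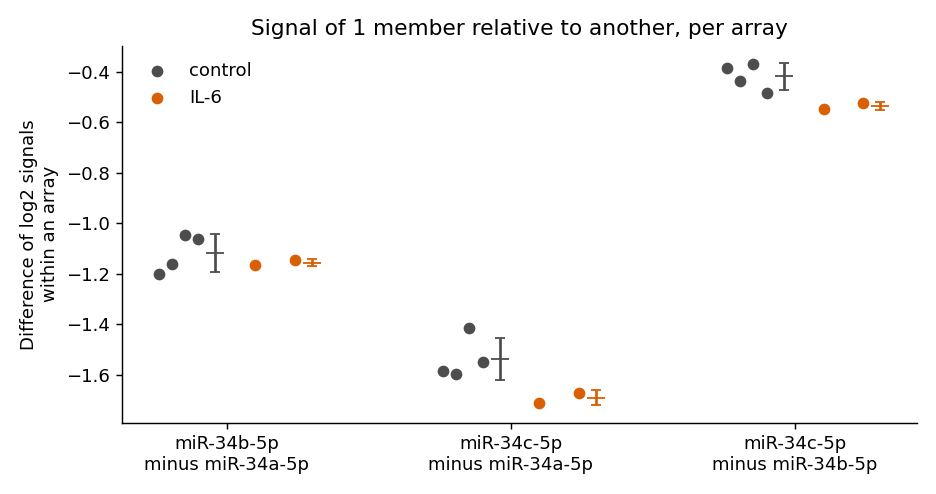
Log2 signal of 1 member minus another on the same array, 1 point per array (grey, control arrays 1 to 4 from left to right; orange, IL-6 arrays 1 and 2), with each group's mean and SD beside it. The IL-6 points lie below all control points for the 2 contrasts with miR-34c-5p and among them for miR-34b-5p minus miR-34a-5p.

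The members' patterns over the 6 arrays are given as a description, since all values share the same arrays and scaling. Pearson's r over 6 arrays was 0.86 between miR-34b-5p and miR-34c-5p, 0.67 between miR-34a-5p and miR-34b-5p, and 0.58 between miR-34a-5p and miR-34c-5p. miR-34b-5p and miR-34c-5p come from 1 transcript, and their probes differed at 2 of the 20 positions compared. The part of either in their r was not tested. Among all tested miRNAs the patterns closest to miR-34a-5p were those of miR-152-3p (r = 0.997), miR-146b-5p (0.98) and miR-425-5p (0.98), each with a difference between -0.01 and 0.0018. Closest to miR-34b-5p were miR-7a-5p (0.91), miR-15a-5p (0.89) and miR-598-3p (0.88). Closest to miR-34c-5p were miR-301a-3p, miR-183-5p and miR-331-3p, each at 0.96, with differences of -0.17, -0.31 and -0.29. All of these were picked by pattern over the same 6 arrays, so differences like the member's own follow in part from that choice. The miRNAs next in signal, below and above each member, had these differences. Around miR-34a-5p they were 0.94 for miR-466i-5p and -0.07 for miR-30d-5p. Around miR-34b-5p they were -0.04 for miR-140-5p and -0.13 for miR-20b-5p. Around miR-34c-5p they were -0.16 for miR-5117-3p and 0.89 for miR-3470a. In each case at least 1 neighbour lay within 0.1 of the member.

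The miR-449 miRNAs, which carry the seed of the 5p arms, were at blank level. The array held miR-449a-5p, miR-449b and miR-449c-5p, and 0 of the 3 were detected on any array. The scaled signal of miR-449a-5p ran from -0.485 to 0.924 units over the 6 arrays, and that of miR-449c-5p from -1.49 to -0.381. Of the miRNAs with that seed on these lists, the 3 miR-34 5p arms were thus the ones measured in these adipocytes.

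Other miRNAs under p53 made up a list of 14, of which 11 were tested and 3 (miR-215-5p, miR-200c-3p and miR-141-3p) were not detected on any array. Of the 11, 0 passed in either direction, with limma adjusted p from 0.0845 to 0.961. Their median difference was -0.13, with 10 below 0 and 1 above, beside the median of -0.016 over all tested miRNAs. The 11 are not independent of each other, since some of them are transcribed together. Without scaling the median turned to 0.17, with 2 below 0, and 10 of the 11 were again below the median of all tested miRNAs. Without IL-6 2 the median was -0.04 and 7 of the 11 were below that of all tested miRNAs. With normexp background correction it was -0.07 and again 7 were below, and with the replicate block 8 were. Both IL-6 arrays lay below all controls for 4 of the 11, where 21.7% of all tested miRNAs did so. miR-143-3p, whose processing p53 is known to promote, had the largest difference, -0.39 ± 0.08 (SE, limma adjusted p = 0.0845). miR-192-5p and miR-194-5p, transcribed together under p53, differed by -0.34 ± 0.12 (adjusted p = 0.175) and -0.22 ± 0.08 (adjusted p = 0.176). miR-145a-5p, the partner of miR-143, differed by -0.18 ± 0.08 (adjusted p = 0.241). Without control 4, miR-143-3p and miR-192-5p passed the test, 2 of 11 and both lower. There 10.3% of all tested miRNAs passed in either direction, 23 higher and 8 lower. With the scanner file's total gene signal miR-143-3p passed, 1 of 11 and lower. There 14% of all passed in either direction, 13 higher and 29 lower. The rest lay between -0.14 for miR-107-3p and 0.01 for miR-29c-3p, with -0.13 for miR-16-5p, -0.12 for miR-15a-5p, -0.07 for miR-22-3p, -0.06 for miR-29a-3p and -0.05 for miR-29b-3p. miR-143-3p and miR-145a-5p are also markers of mesenchymal cells, a list of 5 in which 3 members had both IL-6 arrays below the controls and the median was -0.18, or 0.12 without scaling. The others of that list were miR-378a-3p at -0.19, miR-199a-3p at -0.05 and miR-214-3p at 0.05. The part of cell makeup in these differences was not tested.

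Other miRNAs reported to target Sirt1, the best-known metabolic target of miR-34a, made up a list of 11. Of these, 6 were tested and 5 were not detected on any array. The 6 differences ran from -0.07 for miR-22-3p to 0.09 for miR-181b-5p, with a median of 0.02 (-0.09 with scaling over all mouse probes, 0.31 without scaling), and 0 passed (limma adjusted p from 0.589 to 0.992). In 0 of the 6 did both IL-6 arrays lie outside the control range, where 34.8% of all tested miRNAs did. miR-93-5p differed by 0.05, miR-181a-5p by 0.04, miR-199a-5p by -0.0044 and miR-195a-5p by -0.04.

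**Figure D5:**
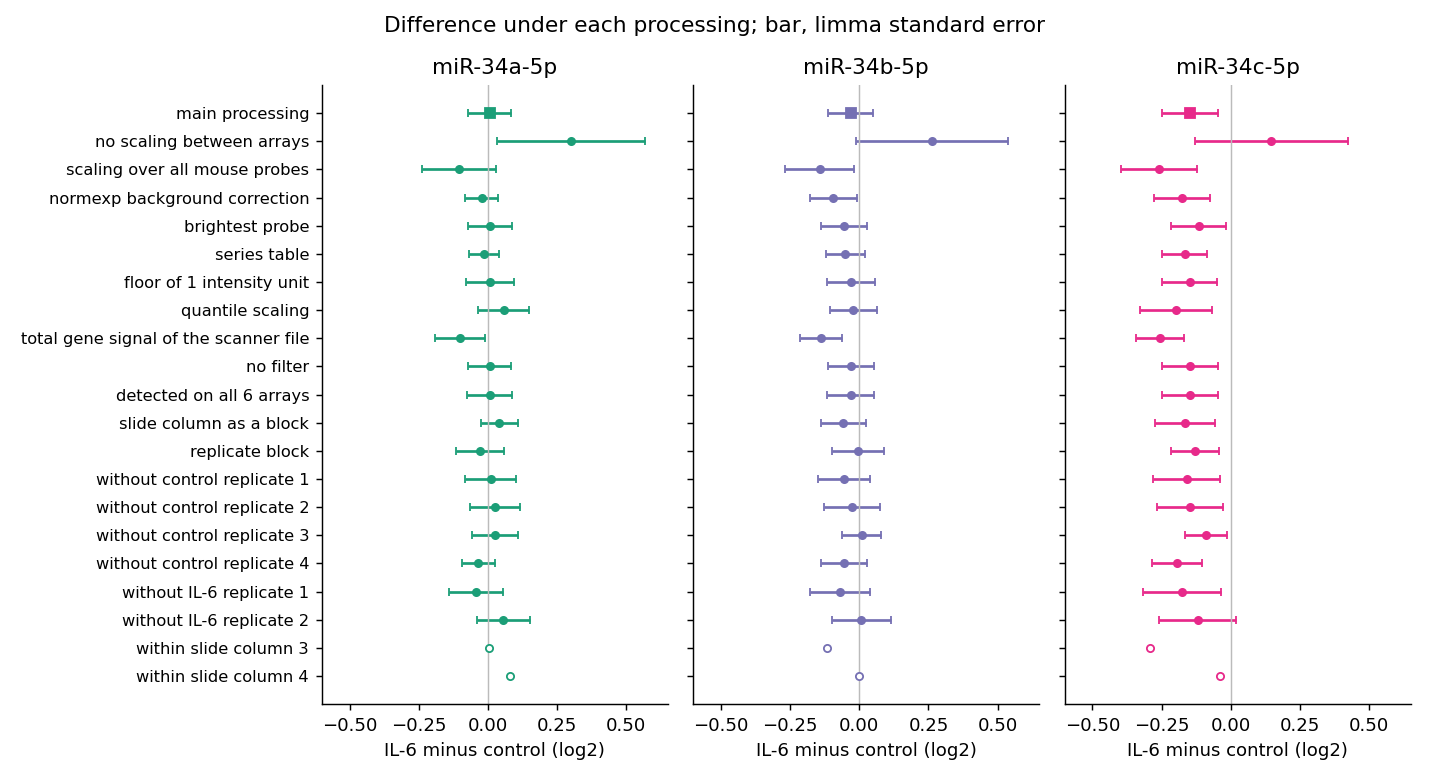
Difference between IL-6 and control arrays in log2 units for the 3 detected members under each processing, with limma's standard error as the bar (square, the processing reported; circles, alternatives; open circles, single arrays compared within a slide column, with no error). Without scaling all 3 members shift upwards together, to 0.30, 0.26 and 0.15, and the lowest adjusted p of a member under any processing with a test was 0.101.

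The unscaled signals spread more widely over the arrays than the scaled ones. For miR-34a-5p they were 199, 234, 146 and 179 units on the control arrays and 260 and 204 on the IL-6 arrays. For miR-34c-5p they were 66.2, 77.5, 54.9 and 61.2 on the control arrays and 79.3 and 64.0 on the IL-6 arrays. Control 3 was lowest and IL-6 1 highest for both, the same arrays that had the lowest and highest scaling percentile, 248 and 440 units. Without scaling the median of all tested miRNAs was 0.28 higher, and relative to that median miR-34c-5p stood at -0.12, beside -0.13 with scaling. miR-34a-5p stood at 0.03 without scaling and 0.02 with it.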

How the data were processed

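MicroRNA was measured on 6 one-colour Agilent arrays, 4 control and 2 IL-6, from 100 ng of total RNA each. The titles of the samples gave the groups and replicate numbers. The submitters' processing notes name Agilent Feature Extraction 10.10.1.1 as the scanner software. The deposited scanner values are intensity values, from which a spatially fitted background had been subtracted per the file headers, and can be negative. Deposited spot flags of another unit mark spots as well above background, uneven, outlying or saturated. No mouse spot was saturated. The sources used here do not give a normalization by the authors. The deposited series table held linear intensity values equal to the scanner's total probe signal (largest difference 0), neither log-transformed nor centred, with column medians of 0.0937, 0.104, 0.0777, 0.0781, 0.0727 and 0.117, and served as an alternative.

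Uneven and outlying spots were left out (between 3 and 14 of the members' 240 per array). Spots of a probe were averaged, arrays scaled, and the probes of a miRNA averaged on the linear scale. Values under 6.25 units were set to that floor, the highest of the arrays' lowest detected signals, before log2 was taken. The 299 miRNAs detected on all arrays of a group were tested with limma 3.58.1 in R 4.3.3 (lmFit, eBayes with a mean trend, two-sided, Benjamini-Hochberg over all 299, threshold 0.05). The fit was tested on simulated data whose values were independent between miRNAs and arrays. Such data hold no error shared within an array or slide row, so they cannot show how the p-values hold here. Single values were compared with exact two-sided permutation tests over the 15 splits of 6 arrays into 4 and 2. All members are named, as are the tested members of the lists described, the 3 miRNAs with the closest pattern and the neighbours in signal. The members and lists were chosen with earlier results of these data known. Alternatives were other scaling, background correction, probe summary, floor, filter, covariates and arrays.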

Additional observations from a re-analysis of the deposited data

Results flagged for a closer look

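One value stood apart from the others of its group. The scaled signal of miR-34b-3p was 7.99 units on control 2, while the other 3 controls lay between 6.17 and 6.42. The gap to the nearest of them exceeded Dixon's 95% critical value for 4 samples. Chance gives such a gap in about 1 of 20 groups, and 9 groups of control values were examined. The arm was not detected on control 2 by the share of spots well above background, and was by the scanner software's own call.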

How the results depend on the processing

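No alternative took a member past the threshold. Adjusted p-values (limma) ran from 0.46 to 1 for miR-34a-5p, 0.233 to 0.993 for miR-34b-5p and 0.101 to 0.793 for miR-34c-5p. The sign of miR-34a-5p turned to -0.10 with scaling over all mouse probes or with the scanner file's total gene signal, -0.022 with normexp and -0.013 with the series table. Without scaling miR-34b-5p was 0.26 and miR-34c-5p 0.15. Leaving out 1 array gave -0.043 to 0.056 for miR-34a-5p, below 0 without control 4 (-0.034) or IL-6 1 (-0.043). It gave -0.071 to 0.0097 for miR-34b-5p, above 0 without control 3 (0.0097) or IL-6 2 (0.0076), and -0.19 to -0.09 for miR-34c-5p. Where 1 IL-6 array remained, it was assumed to vary like the controls. miR-34c-5p was -0.29 within slide column 3. The contrasts of miR-34c-5p with the other members could not be moved by 7 of the 18 alternatives, which rescale whole arrays, take the scanner's totals or change the floor or the filter (changes under 0.0001). Under the other 11 they ran from -0.30 to -0.11 against miR-34a-5p and -0.18 to -0.04 against miR-34b-5p. miR-34b-3p was detected on 3 arrays by the scanner software's call and on 3 by any spot well above background.

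The number of miRNAs called, 1 in all, was 34 without scaling, 2 with scaling over all mouse probes, 42 (13 higher, 29 lower) with the total gene signal, 7 with a floor of 1 unit, 2 with the brightest probe and 2 with no filter. It was 0 with normexp, the series table, detection on all 6 arrays or the slide column as a block. Leaving out 1 array gave 1 to 31, the latter without control 4 (23 higher, 8 lower), 5 without IL-6 1 and 4 without IL-6 2. The 2 replicate numbers that both groups share pair nothing by the labels. With the replicate block miR-34a-5p was -0.028, miR-34b-5p -0.0043 and miR-34c-5p -0.13, and 0 miRNAs were called. The causes of these shifts were not tested. A signal near background limits what can be said of the 3p arms.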

Other observations

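The array file lists a genome position for each probe, and for miR-34b-5p, miR-34b-3p and miR-34c-3p on chromosome 9 that position was not the place of the arm the probe is named for. miR-34c-5p was not compared. The probe of 22 bases for miR-34b-5p is listed at chr9:51103577-51103597, while RefSeq places the mature miR-34b-5p at chr9:51103610-51103632. The probe of 16 bases for miR-34b-3p is listed at chr9:51103619-51103633, while the mature arm lies at chr9:51103574-51103595. The miR-34a probes, on the plus strand, were listed inside their arms. Over all probes with a RefSeq entry, 1299 of 1305 on the plus strand lay inside the mature miRNA they are named for, and 2 of 978 on the minus strand did. When the listed position was mirrored within the hairpin, 978 of 978 minus-strand probes lay inside. The probe sequences of the 5 members with a RefSeq entry paired with the arms they are named for. No signal in these results depends on the listed positions.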
